A study of Bos taurus with 16 samples.

Results

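PTX3, OLR1 and IDO1 are 3 genes of blood monocytes and macrophages that were chosen by their log2 ratios on these same arrays, where they had been seen to be higher in blood than in endometrial CD14+ cells of pregnant cows. Their probes were found by the gene name, the symbol in brackets or the gene identifier in the scanner's annotation, and the array held 1 probe for each, 3 of its 21475 probes and 3 of its 20602 gene names. A probe entered the tests if one tissue or the other had it well above background in 4 or more of its 8 channels. All 3 did, among 16654 probes. The PTX3 probe is listed as LOC541148. The IDO1 probe is listed as LOC506281 with the older symbol INDO and was reached through its gene identifier, so that 2 of the 3 probes were found by the names PTX3, LOC541148, OLR1 and IDO1 alone. Since the direction of the difference chose the genes, their ratios between tissues are given as a description, without a test.

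Endometrial and peripheral blood CD14+ cells of 4 cows were compared by their RNA on 8 Agilent bovine arrays with 2 colours. The animals, numbered 1 to 4, were at days 164, 239, 242 and 248 of pregnancy, and the material came from an abattoir. Each array held the amplified RNA of both tissues of 1 animal, and there were 2 such arrays for each animal, with the dyes swapped between them in animals 1, 2 and 4. No treatment or genotype separates the animals, and only 1 of them was at midgestation, so its stage and the animal itself cannot be told apart.

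The blood group consisted of mononuclear cells sorted by flow cytometry for CD14, a co-receptor for bacterial lipopolysaccharide. The endometrial group consisted of cells sorted the same way after enzymatic dispersal of minced interplacentomal endometrium. It is therefore limited to what survives digestion and to whatever else passes the CD14 gate. CD14 itself was detected above background in 8 of 8 channels of either tissue. Its log2 ratio of endometrium over blood was -2.09 in animal 1 and 0.31, 0.65 and 0.44 in animals 2, 3 and 4. In such bulk samples, fewer cells of a type and less RNA per cell cannot be told apart.

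PTX3 is a long pentraxin, a secreted pattern recognition molecule that binds complement component C1q and is made by monocytes, macrophages, dendritic cells and endothelium in response to interleukin-1, tumour necrosis factor and Toll-like receptor ligands. OLR1 encodes LOX-1, a C-type lectin-like receptor that takes up oxidised low-density lipoprotein and is carried by endothelium, macrophages and some neutrophils. IDO1 is the interferon-inducible enzyme that opens the tryptophan ring at the first step of the kynurenine pathway, and it is known in reproductive biology as a restraint on T cells at the interface of mother and conceptus.

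The probes are shown because each value rests on 1 oligonucleotide per gene. Each was 60 bases long, and its first 30 bases, 5′ to 3′ as the scanner files give them, were as follows.
PTX3: gggagactggagaaggcttttggggatatt
OLR1: tgtagatagtattgttatcatttgttgttc
IDO1: ggcaccaatgtcatggactttctgaagact
The share of G and C over the whole probe was 43.3% for PTX3, 28.3% for OLR1 and 40% for IDO1. The longest run of bases that any of them had in common with a probe of another gene was 13. The probe of each gene was printed on 2 spots of the array, and none of these spots was flagged as an outlier on any array.

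The scanner files and the authors' table of values went against each other's labels. For 16 of 16 columns, the table's values were found in the right dye but in the file deposited under the other array of the animal, at 100% of the probes within 0.001 on the log2 scale. In 0 of 16 cases were they found in the file under the column's own label. Read as attached, the scanner files turned the ratios of animals 1, 2 and 4. The placental genes PAG7 and PRP1 and the uterine gland gene SERPINA14 were higher in endometrium in 4 of 4 animals by the table and in 1 of 4 by the files as attached. The values below come from the authors' table, and each member's ratio by the files as attached is given beside them. The level of a gene is its log2 normalized value, averaged over the 2 spots of the probe and the 2 arrays of an animal. All columns of that table share a median of 8.0, and levels are compared within a gene only, since probes differ in how they hybridize.

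PTX3 had levels of 17.30, 11.32, 14.01 and 13.49 in the blood CD14+ cells of animals 1 to 4. In the endometrial CD14+ cells of the same animals they were 11.11, 6.95, 8.43 and 12.97. Blood was therefore above endometrium in every animal, by a log2 ratio of endometrium over blood of -6.19, -4.38, -5.58 and -0.52. As fold differences these were 72.8, 20.8 and 47.7 in animals 1, 2 and 3 and 1.43 in animal 4, whose endometrial cells had a PTX3 level near that of their own blood. The mean ratio was -4.16 ± 2.55 (SD, n = 4 animals), a 17.9-fold higher level in blood. The tissues overlapped, because the endometrial cells of animal 4 lay above the blood cells of animal 2.

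OLR1 had levels of 16.70, 8.55, 9.85 and 9.63 in the blood cells of animals 1 to 4, and of 14.01, 7.69, 6.66 and 8.19 in their endometrial cells. Animal 1 stood far above the other 3 in both tissues. Within animals the log2 ratio was -2.69, -0.86, -3.19 and -1.44, which is 6.47-, 1.82-, 9.13- and 2.71-fold more in blood. The mean ratio was -2.05 ± 1.08 (SD, n = 4 animals), or 4.13-fold. Only the comparison within animals put blood above endometrium throughout, for the endometrial level of animal 1 exceeded the blood level of animals 2, 3 and 4.

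IDO1 had the reverse order of animals in blood only, with animal 2 highest and animal 1 lowest, whereas in endometrium animal 4 was highest, as it was for PTX3. Its levels were 6.83, 13.31, 10.94 and 11.31 in the blood cells of animals 1 to 4, and 4.09, 9.98, 9.36 and 10.84 in their endometrial cells. The sample of animal 1 was the lowest of the 4 in each tissue, and its endometrial cells held the lowest IDO1 level of all 8. The log2 ratio was -2.73, -3.33, -1.58 and -0.47, with 6.64-, 10.1-, 2.99- and 1.38-fold more in blood, and its mean was -2.03 ± 1.27 (SD, n = 4 animals), or 4.08-fold. Here too the tissues overlapped, as the blood cells of animal 1 lay below the endometrial cells of animals 2, 3 and 4.

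**Figure D1:**
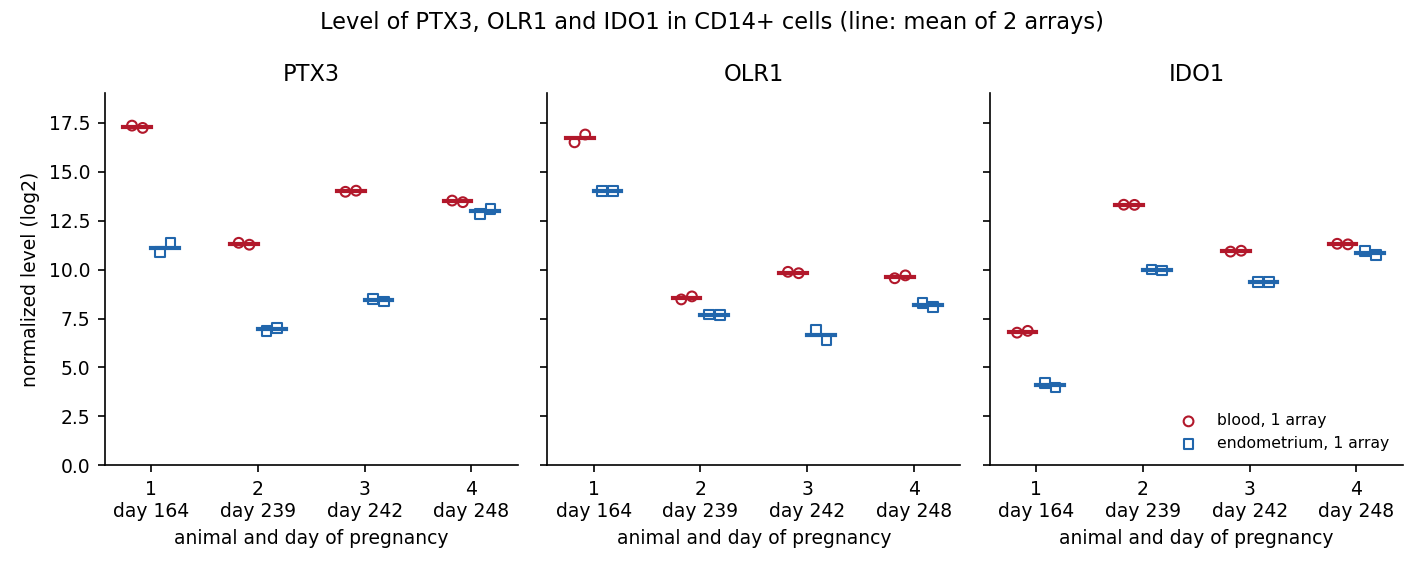
Level of PTX3, OLR1 and IDO1 (log2 normalized value) in blood (red circles) and endometrial (blue squares) CD14+ cells of animals 1 to 4, with the day of pregnancy under each animal; open symbols are the 2 arrays of an animal and lines are their means. The red line lies above the blue line in every animal, and animal 1 is highest for PTX3 and OLR1 in blood and lowest for IDO1.

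All 3 genes were thus higher in blood in 4 of 4 animals, as were 15.1% of the tested probes. They had been selected for that direction, and nothing is read from the count. A mean difference over 2-fold toward blood was present in 17.8% of the tested probes, together with that direction in 4 of 4 animals in 9.74%, and a lack of overlap between the tissues with blood higher in 3.37%, a property that none of the 3 genes had. The median ratio of all tested probes was -0.139, and relative to it the mean ratios were -4.02 for PTX3, -1.91 for OLR1 and -1.89 for IDO1. Ranked from the most blood-sided ratio, PTX3 was at place 8 of 16654, OLR1 at 516 and IDO1 at 541.

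The difference had the same direction in either dye. On single arrays the ratio of PTX3 lay between -6.48 and -0.35, that of OLR1 between -3.42 and -0.77 and that of IDO1 between -3.36 and -0.38, and blood was higher on 8 of 8 arrays for each gene. In the 3 animals with swapped dyes, the mean ratios were -3.69 for PTX3, -1.67 for OLR1 and -2.18 for IDO1. The technical replicates of a sample differed by at most 0.47 for PTX3, 0.54 for OLR1 and 0.23 for IDO1 on the log2 scale.

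The order of the 8 samples can be set against this technical difference alone, since there was 1 sample of each tissue and animal, and it says nothing of the spread between animals. For PTX3, the blood cells of animals 1, 3 and 4 came first, and the single pair of neighbors closer than the technical difference was the blood of animal 2 and the endometrium of animal 1. For OLR1, both samples of animal 1 came first. The blood cells of animals 3 and 4 were not separated beyond the technical difference, and neither were the blood cells of animal 2, the endometrial cells of animal 4 and the endometrial cells of animal 2 each from the next. For IDO1, the blood cells of animal 2 came first, and the blood of animal 3 and the endometrium of animal 4 were not separated.

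By other readings of the arrays each gene stayed higher in blood in 4 of 4 animals. From the scanner's processed signal the mean log2 ratios were -4.19 for PTX3, -2.09 for OLR1 and -1.95 for IDO1. From the scanner medians, after normexp background correction, loess and quantile normalization, they were -3.65, -1.48 and -1.36. The largest single shift was that of IDO1 in animal 1, from -2.73 to -0.59, in the animal where its level was lowest. With the scanner files read as attached, the means were 1.14, 0.55 and 0.68, and blood was higher in 1 of 4 animals for each gene.

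**Figure D2:**
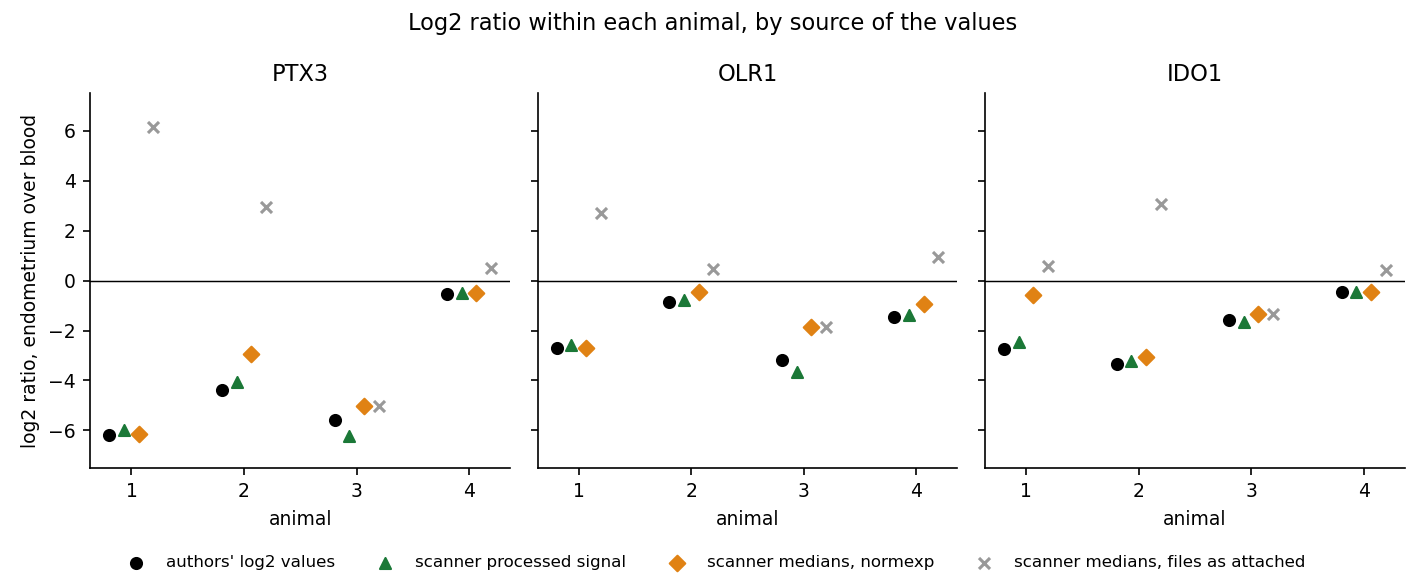
Log2 ratio of endometrium over blood of each gene in animals 1 to 4, from the authors' log2 values (black), the scanner's processed signal (green), the scanner medians after normexp (orange) and the same medians with the files read as attached (grey crosses). Values under 0 are higher in blood; the first 3 sources lie under 0 in every animal, and the grey crosses lie above 0 in animals 1, 2 and 4.

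The spread among animals was wide. The genes had been selected by their ratios, and whether that selection favored a wide spread was not tested. Within the blood cells alone, the level ranged over 5.98 log2 units for PTX3, 8.15 for OLR1 and 6.49 for IDO1, or 63.0-, 284- and 89.7-fold from the lowest to the highest animal. These ranges exceeded those of 96.3%, 99.2% and 97.3% of the tested probes, whose median range in blood was 1.61. In the endometrial cells the ranges were 6.02, 7.35 and 6.75, against a median of 2.42 for all tested probes. Without animal 1, the blood level of OLR1 was 9.35 ± 0.69 (SD, n = 3 animals), while PTX3 was at 12.94 ± 1.42 and IDO1 at 11.85 ± 1.28.

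The sum of squares of the 8 means was divided between tissue, animal and what was left. For OLR1 the animal took 87.8% and the tissue 10.1%, and for IDO1 81.7% and 14.1%. PTX3 differed from them in that the tissue took 46.4% and the animal 40.6%. The medians over all tested probes were 12.5% for tissue and 49.8% for animal. No test was made of these shares.

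**Figure D3:**
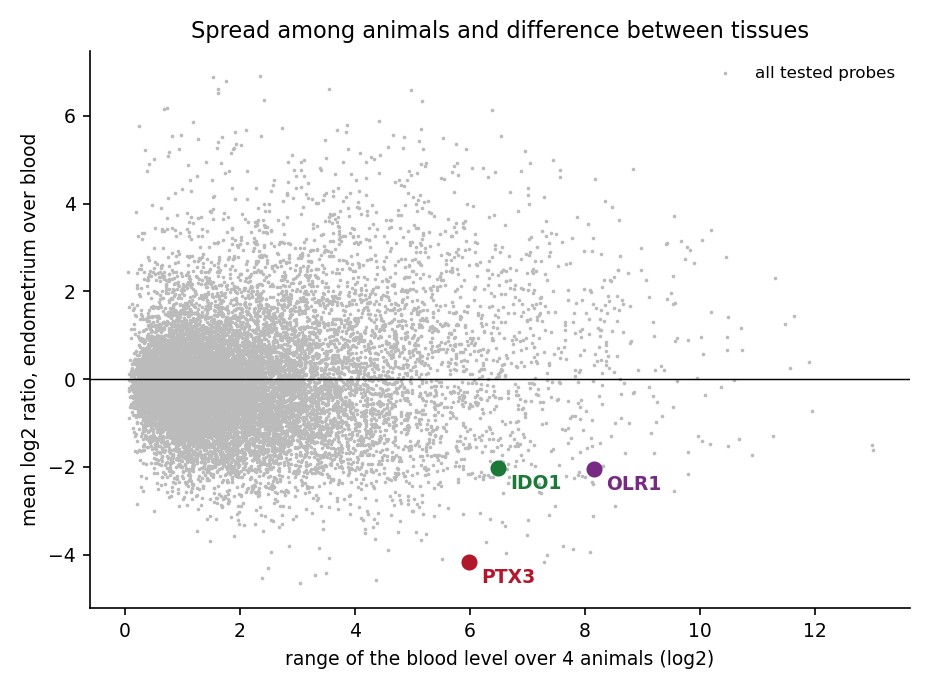
Mean log2 ratio of endometrium over blood (n = 4 animals) against the range of the blood level over the 4 animals (log2) for all 16654 tested probes (grey) and for PTX3, OLR1 and IDO1 (colored). All 3 genes lie to the right, with blood ranges of 5.98 to 8.15, and PTX3 lies lowest, at -4.16.

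Across the 8 means of animal and tissue, PTX3 and OLR1 varied together with a Pearson r of 0.69, OLR1 and IDO1 in opposite directions with -0.71, and PTX3 and IDO1 with -0.11. The 8 means come from 4 animals and share arrays and a normalization, so r is a description. It depended on animal 1. Without that animal, over 6 means, r was 0.83 for PTX3 and OLR1, 0.52 for OLR1 and IDO1 and 0.48 for PTX3 and IDO1, so that the opposite course of OLR1 and IDO1 was that of animal 1 against the rest. Leaving out animal 1 here was chosen after the values were seen.

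The named genes with the pattern most like PTX3 were NAPSA, an aspartic protease, NFKBIZ, a nuclear protein of the I-kappa-B family, DUSP16, a phosphatase of MAP kinases, TLNRD1 and MOCS1, with r between 0.95 and 0.97 over 8 means. Without animal 1 their r was between 0.91 and 0.96. Those most like OLR1 were RUNX1, a transcription factor of blood cell development, TNFSF13, a cytokine of the tumour necrosis factor family, PLAU, which is urokinase, CREBL2 and CNPY3, with r of 0.97 to 0.99. These r values leaned on animal 1, without which they were 0.87 for RUNX1, 0.87 for TNFSF13, 0.74 for PLAU, 0.79 for CREBL2 and 0.78 for CNPY3. The genes most like IDO1 were SPRTN, a protease of DNA repair, SASH3, an adaptor of lymphocytes, NCAN, SCN11A and GATAD2B, with r of 0.97 to 0.98, and of 0.84 to 0.98 without animal 1.

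Other genes were read from lists drawn up around each member and taken through a limma fit of all 16654 tested probes. To be called, a probe needed a fold difference over 2 and a Benjamini-Hochberg adjusted p no greater than 0.05. Of all tested probes 1.35% were called, 1.22% higher in endometrium and 0.12% higher in blood. Over the 5 lists, 4 genes were called higher in endometrium and 0 higher in blood. Each of the 4 lost its call without animal 4, without the pairing of tissues by animal, and with the scanner medians after normexp. At an unadjusted p of 0.05 and the same fold, limma passed 10 of the 82 tested list genes toward endometrium and 14 toward blood, against 7.98% and 8.05% of all tested probes. The analysis of variance of the methods, unadjusted, passed 5 and 3, against 3.79% and 3.58% of all tested probes.

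Around PTX3, the list of pentraxins and binding partners had 13 tested genes of 18 on the array, of which 3 were called, all higher in endometrium. They were the chains of C1q, the first component of the classical complement pathway and a ligand of PTX3. The log2 ratio was 4.25 ± 0.90 (SD, n = 4 animals) for C1QA with a limma adjusted p of 0.014, 3.81 ± 0.71 for C1QB with 0.017 and 3.75 ± 0.37 for C1QC with 0.013. In 4 of 4 animals these chains were on the endometrial side, as were 9.82% of all tested probes, and PTX3 in the same cells was on the blood side. Of the short pentraxins, APCS was well above background in 0 of 16 channels. CRP was so in 1 of the 8 blood and 3 of the 8 endometrial channels and was not tested, and its endometrial level was 11.13 in animal 4 and 3.88 to 5.28 in animals 1 to 3. Without animal 1 the 3 chains also lost their calls, at 3.94, 3.52 and 3.60. Without adjustment 4 genes passed in limma toward endometrium and 0 toward blood, and the median ratio was 0.77.

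Around OLR1, the list of oxidised LDL receptors and of C-type lectins encoded near OLR1 had 13 tested genes of 17 on the array. One was called, MSR1, a scavenger receptor that also takes up modified LDL, at 4.61 ± 0.86 (SD, n = 4 animals) with a limma adjusted p of 0.011 and with 4 of 4 animals on the endometrial side. This was the brighter of 2 MSR1 probes, and the other was at 2.85. Of the other 12 genes none passed after adjustment. Without it 5 of the 13 passed in limma toward endometrium and 0 toward blood, 0 were higher in blood in all 4 animals, and the median ratio was 1.21. In the reference gene order of the cow assembly ARS-UCD2.0, OLR1 lies between TMEM52B and CLEC7A. CLEC7A, a receptor for fungal glucans, was well above background in 2 of 8 channels of each tissue and was not tested. Also near OLR1, GABARAPL1 was at -0.14 ± 0.53 and CLEC1A at 0.92 ± 0.75, and neither passed the test.

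Around IDO1, the list of the tryptophan and kynurenine pathway had 12 tested genes of 15 on the array, of which 0 were called and 2 toward blood passed without adjustment. The median ratio was -0.57. The enzymes that could replace IDO1 at its step were well above background in few channels or in none. TDO2 was well above background in 0 of 16 channels, and IDO2, which lies beside IDO1 in the gene order, in 0 of 8 blood and 2 of 8 endometrial channels. The 4 tested genes with the largest ratios were KYNU, the hydrolase of kynurenines, at -2.27 ± 2.02, SLC7A5, the transporter that carries tryptophan into cells, at -2.05 ± 1.09, KMO, the monooxygenase after IDO1, at 2.10 ± 4.12, and AADAT, an aminotransferase, at 2.03 ± 2.68 (SD, n = 4 animals). Their adjusted p in limma lay between 0.18 and 0.50. KMO and AADAT entered the test through endometrium. KMO was above background in 3 of 8 blood and 4 of 8 endometrial channels, and AADAT in 2 of 8 and 6 of 8. SLC7A5 was higher in blood in 4 of 4 animals, at -2.54, -2.18, -2.99 and -0.50, whereas KMO was at 8.16 in animal 3 and AADAT at 5.58, and without animal 3 their means were 0.09 and 0.85. With the scanner medians after normexp the means were -0.75 for KYNU, 0.94 for KMO and 0.47 for AADAT.

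Of the early genes of NF-kB and Toll-like receptor signaling, a group to which the known inducers of PTX3 and OLR1 lead, 24 of the 26 on the array were tested. In limma 0 were called after adjustment, and 9 passed toward blood without it, while the analysis of variance passed 1, near its share over all tested probes of 3.58%. Their median ratio was -0.99, against -0.139 for all tested probes, and 10 of the 24 were higher in blood in 4 of 4 animals, as were 15.1% of all tested probes. The largest ratios were those of PTGS2, the inducible cyclooxygenase, at -3.08 ± 2.23, IL1B, the cytokine interleukin-1 beta, at -2.57 ± 1.89, BCL3, a nuclear I-kappa-B protein, at -2.57 ± 1.96, and TNFAIP3, a brake on NF-kB, at -2.48 ± 1.93 (SD, n = 4 animals). Their adjusted p in limma lay between 0.18 and 0.21, and with normexp TNFAIP3 was at -0.68. In animal 4 they were -0.91, -0.02, -0.06 and 0.26, the weakest of the 4 animals for each gene, as it was for PTX3 and IDO1. The median of the list by animal was -2.40, -1.23, -1.20 and 0.07.

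Of the genes induced by interferon gamma, the main inducer of IDO1, 20 of 21 on the array were tested and 0 were called, while 3 toward blood and 1 toward endometrium passed without adjustment. The median ratio was -0.54, and 3 of the 20 were higher in blood in 4 of 4 animals. Among the 4 largest ratios, FAS, a death receptor, was at -2.45 ± 1.34 and TAP1, a peptide transporter, at -1.91 ± 1.33 (SD, n = 4 animals), both on the blood side with IDO1 in 4 of 4 animals. The other two were chemokines that entered the test through endometrium. CXCL9, above background in 3 of 8 blood and 4 of 8 endometrial channels, had ratios of 3.98 and 5.15 in animals 1 and 3 and of -0.08 and 0.01 in animals 2 and 4. CXCL11 was above background in 0 of 8 blood and 4 of 8 endometrial channels, with ratios of 2.91, 0.05, 5.26 and 2.25 in animals 1 to 4. With the lowest signal above background taken for blood, its mean by the authors' values was 2.25-fold higher in endometrium. The limma adjusted p of the 4 genes lay between 0.16 and 0.32. With the scanner medians after normexp the log2 ratio was 1.17 for CXCL9 and 0.64 for CXCL11.

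**Figure D4:**
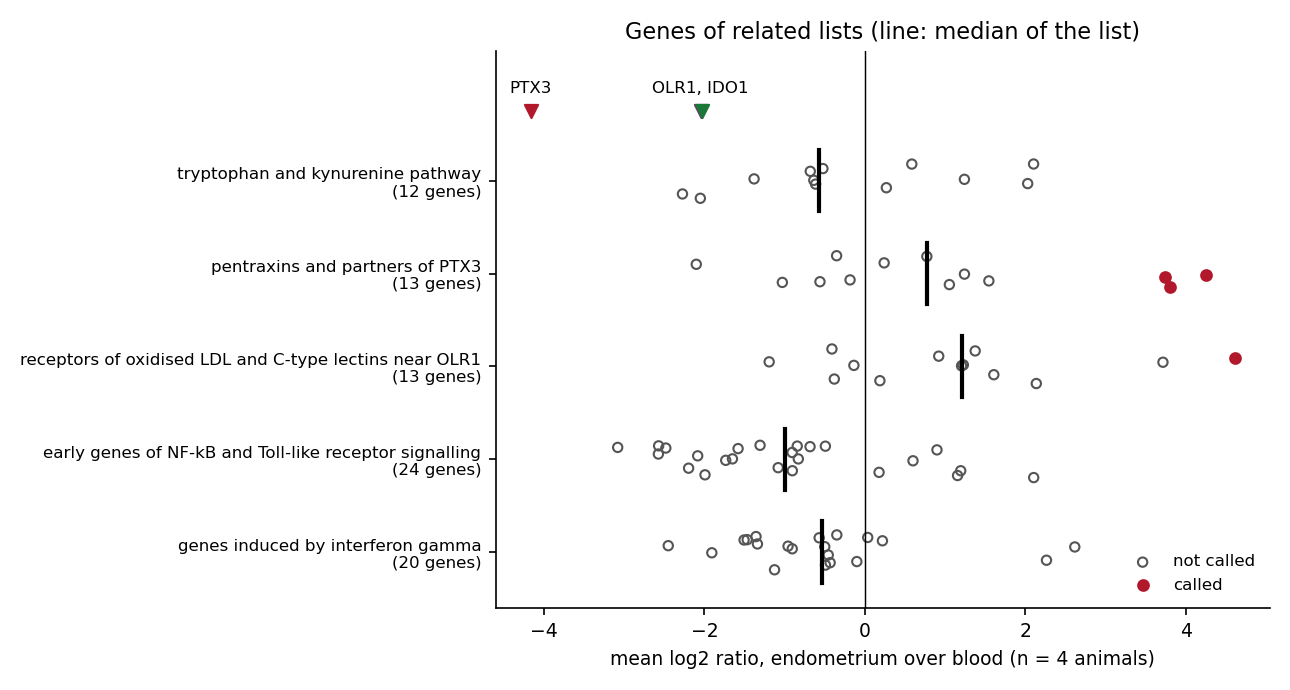
Mean log2 ratio of endometrium over blood (n = 4 animals) of the tested genes in 5 lists, with called genes filled in red and the median of each list as a black line; triangles at the top mark PTX3, OLR1 and IDO1. The called genes are C1QA, C1QB, C1QC and MSR1, all between 3.75 and 4.61.

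Sums of marker levels set the blood of animal 1 apart, and between tissues they went with the members for some cell types and against them for others. Granulocyte markers, 11 on the array and 9 of them tested, had a summed level of 18.9 in the blood cells of animal 1 and of 12.8 to 13.7 in those of the other 3, and of 10.2 to 15.4 in endometrium. The granulocyte sum was higher in endometrium than in blood in animals 3 and 4. CXCR1 and CCR3 were called higher in blood, but both were above background in 2 of 8 endometrial channels and entered the test through blood. CSF3R, at -1.99, was higher in blood in 4 of 4 animals and passed toward blood without adjustment. LTF, at 2.75, was on the endometrial side in 4 of 4 animals and passed without adjustment, and MMP9 was on that side in animals 1, 2 and 3. S100A8 and S100A9, at -1.49 and -1.48, were each higher in blood in 2 of 4 animals. MMP8 and CAMP were above background in no channel. The median ratio of the 9 tested granulocyte markers was -1.48. Monocyte and macrophage markers, 10 of 10 tested with 0 called and 4 past the unadjusted limit toward endometrium, summed to 19.1 in the blood of animal 1 and to 14.3 to 15.4 in the others, and to 15.1 to 18.4 in endometrium. The blood of animal 1, with the highest PTX3 and OLR1, thus had the highest sums of both lists, while in animals 2, 3 and 4 the monocyte sum was higher in endometrium and all 3 members were higher in blood. Such a sum follows its brightest markers. SPI1, ITGAM and LYZ, at -1.44, -1.36 and -1.15, were each higher in blood in 3 of 4 animals. The median ratio of the monocyte list was 1.08, and in animal 2 it was 0.0025.

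T and NK cell markers, 8 of 8 tested with 0 called and 2 past the unadjusted limit toward endometrium, summed to 10.8 in the blood of animal 1, the sample with the lowest IDO1 in blood, and to 15.9 to 16.7 in the other 3, and to 13.2 to 17.7 in endometrium. Within animal 1 this sum was higher in endometrium, at 13.2, where IDO1 was lower. B cell markers, 8 of 8 tested, summed to 14.6 in the blood of animal 1, to 15.9 to 17.4 in that of the others and to 13.4 to 15.9 in endometrium, and BLK and POU2AF1 were called higher in blood, the latter above background in 2 of 8 endometrial channels. Dendritic cell markers, 9 on the array and 7 tested with 0 called and 2 past the unadjusted limit toward blood, summed to 16.2 to 17.9 in blood and to 13.9 to 16.3 in endometrium, with CLEC9A above background in no channel. The B cell and dendritic cell sums were higher in blood in 4 of 4 animals, as the members were. In the endometrial cells, 5 of 6 trophoblast, 5 of 6 epithelial and 2 of 8 stromal markers were called higher, and 0 of 10 endothelial ones, of which 2 passed without adjustment. Among these, COL3A1 of the stromal and CDH5 of the endothelial list entered the test through endometrium. They were above background in 2 of 8 and 0 of 8 blood channels. With the lowest signal above background taken for blood, CDH5 was 1.79-fold higher in endometrium, under the 2-fold limit. The remaining probe of the trophoblast list, taken in by the symbol PAG1 alone, went the other way. It was at -2.57, higher in blood in 4 of 4 animals, and passed toward blood without adjustment. Whether this probe reads a pregnancy-associated glycoprotein was not tested, and the paper reports PAG1B as upregulated in endometrium. The part of any of these cell types in the levels of PTX3, OLR1 and IDO1 was not tested.

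**Figure D5:**
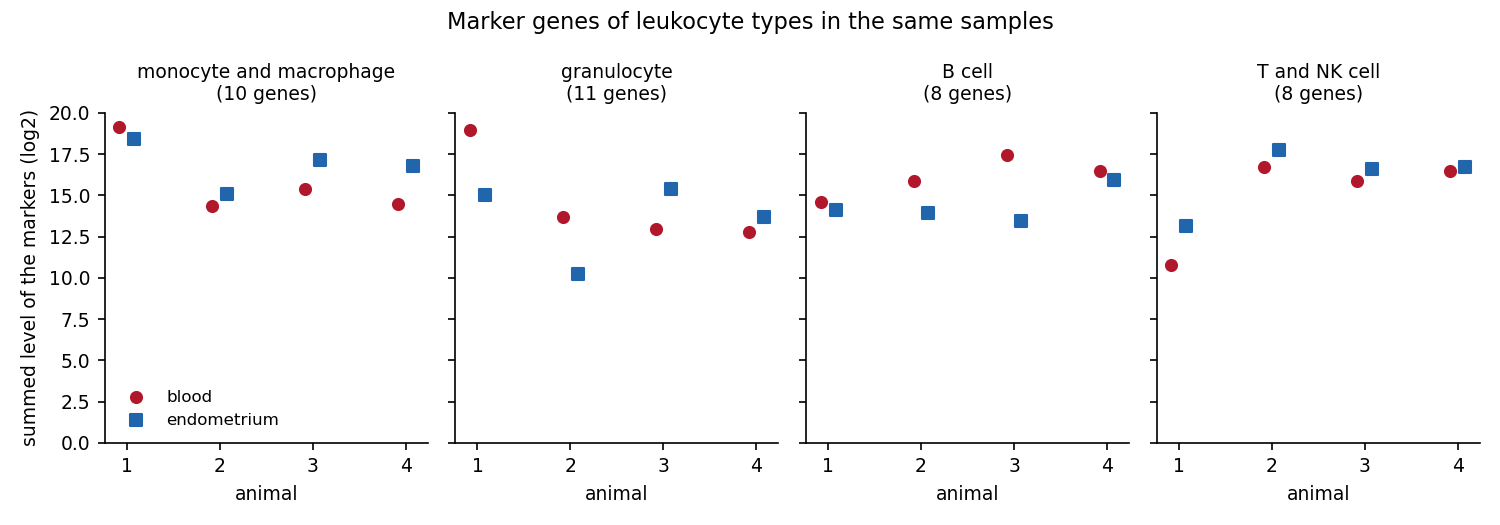
Summed level of the markers of 4 leukocyte types on the array (log2 of the sum of normalized values) in blood (red circles) and endometrial (blue squares) CD14+ cells of animals 1 to 4. Animal 1 has the highest granulocyte and monocyte sums in blood, at 18.9 and 19.1, and the lowest T and NK cell sum, at 10.8.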

How the data were processed

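CD14+ cells of blood and endometrium of 4 cows were measured in 16 channels of 8 arrays. The authors deposited log2 values, which had been through lowess (within arrays) and quantile normalization (over channels) according to their methods, and these were the source of all levels. The authors also deposited scanner files with the median intensity of each spot and a processed intensity, read as alternatives. The files name version 10.5.1.1 of Feature Extraction and the submitters' notes version 9.5. Depth has no counterpart here, and the number of arrays limits precision. No spot of the arrays was saturated (0 of 44407 spots per array).

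Spots of a probe and technical replicates were averaged. The log2 ratio of endometrium over blood within each of the 4 animals was fitted against 0 with limma (version 3.58.1, R 4.3.3), and p-values were adjusted by Benjamini and Hochberg over 16654 probes. The fit was tested on simulated data. Nothing says that the animals were pooled, and each counts as 1 replicate. The labels pair the tissues by animal. Deviations of both tissues of an animal from the tissue means correlated with r of 0.63, 0.37, 0.24 and 0.45 over probes.

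Names were updated through the gene table of assembly ARS-UCD2.0, by accession for 3519 probes and by gene identifier for 9987. For a gene with several probes the brightest was used. The text names all member probes, every called gene of a list or else up to 4 genes with the largest ratio, and the 5 named probes most like each member. Neighbors in the gene order, dim list genes and markers named besides were chosen after their values were seen. Members and lists were chosen with earlier results of these data known. Alternatives changed the source of the values, the file assignment, the filter, the pairing, the test, the probe of a gene, the animals and the technical replicates. The qPCR of the study was not analysed here. For PTX3 the paper reports that qPCR on part of the array samples was numerically higher in endometrium, opposite to its arrays. In further cows it reports a difference toward blood that was not significant.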

Additional observations from a re-analysis of the deposited data

Results flagged for a closer look

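Over the 4 animals, the distance of the most separate value to its nearest neighbor was divided by the whole range for 25 sets of values, which were the levels of the 3 genes in each tissue and the ratios of the named genes. Chance passes Dixon's 95% critical value for this quotient in about 1 in 20 sets, and 2 of the 25 passed. The blood level of OLR1 had a quotient of 0.841 because animal 1, at 16.70, lay far above the 8.55 to 9.85 of the other animals. The log2 ratio of FAS had one of 0.899 because animal 4, at -0.46, lay apart from the -2.96 to -3.24 of the other animals.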

How the results depend on the processing

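The ratios of PTX3, OLR1 and IDO1 kept their direction with every source of values except the scanner files read as attached. With those they reversed to 1.14, 0.55 and 0.68. Leaving out an animal, a technical replicate or a dye group could not turn the direction, since each gene was higher in blood on 8 of 8 arrays. Without 1 animal the mean ratios ranged from -5.38 to -3.49 for PTX3, from -2.44 to -1.67 for OLR1 and from -2.55 to -1.59 for IDO1. A mean of 4 animals cannot move beyond their SD when 1 is left out, so these ranges were not judged against it. The r of PTX3 and IDO1 reversed to 0.48 and that of OLR1 and IDO1 to 0.52 without animal 1. The count of called probes was less stable. Against 224 it was 11 with normexp, 123 with no filter on dim probes, and 0 to 180 without 1 animal, with 64 without animal 1, 95 without animal 3 and 0 without animal 4, where 2674 passed limma at an unadjusted p of 0.05 and the same fold. The methods' analysis of variance called 1229 unadjusted and 0 adjusted. With no replicate block, that is without pairing by animal, it was 38. The number of list genes called higher in endometrium, 4, became 0 with normexp, 0 with no replicate block and 0 to 4 without 1 animal, with 2 without animal 1, which were MSR1 and CLEC12A, and 0 without animal 4. That of list genes called higher in blood was 0 in limma with each of these settings. Of 128 checks of the named list genes 0 reversed, and 16 lost a call, those of C1QA, C1QB, C1QC and MSR1. Sizes moved more, and with normexp TNFAIP3 went from -2.48 to -0.68, KYNU from -2.27 to -0.75, KMO from 2.10 to 0.94, AADAT from 2.03 to 0.47, CXCL9 from 2.26 to 1.17 and CXCL11 from 2.62 to 0.64. The causes were not tested.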
